A study of Arabidopsis thaliana with 12 samples.

Results

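The genes described here are 44 nuclear genes of photosynthesis and the Calvin cycle in Arabidopsis thaliana, out of 33602 genes in the deposited count table. They were chosen by gene identifier and not by their measured values, although earlier results of these data were known. They comprise 4 genes of the light-harvesting antenna of photosystem I (LHCI) and 6 of the antenna of photosystem II (LHCII). A further 10 encode subunits of photosystem I and 10 those of photosystem II. The rest are 4 electron carriers, 2 subunits of the chloroplast ATP synthase, 5 genes of Rubisco and its activase, and 3 Calvin cycle enzymes. A total of 41 genes passed the filter on low counts and were tested, and the other 3 (LHCB2.2, PSAK and PETE1) are given by their counts.

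RNA was sequenced from seedlings at early germination in 4 groups of 3 libraries: camta6-5 with 200 mM NaCl, camta6-5 without NaCl, wild type (Col-0) with 200 mM NaCl and wild type without NaCl, each after 16 hours on agar medium. The labels describe camta6-5 as a mutant allele of CAMTA6, which encodes a calmodulin-binding transcription activator, and name no other allele of the gene. They call the tissue seedlings, with no organ separated, and do not say whether libraries of a group came from separate cultures, so p-values measure the spread between these libraries. The groups without NaCl are called controls.

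Most proteins of the photosynthetic machinery are encoded in the nucleus and imported into the chloroplast. The antenna proteins bind chlorophyll and pass light energy to the photosystems, and electron carriers link the photosystems. The ATP synthase makes ATP, and Rubisco and the other Calvin cycle enzymes make sugar. A seedling lives at first on seed reserves, and the nuclear photosynthesis genes are known to be switched on in light as the cotyledons green.

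The libraries held 29473212 to 35450685 counts. CAMTA6 itself had 38.2 to 52.3 CPM (counts scaled by library size, TMM method) in camta6-5 with NaCl and 33.2 to 35.6 CPM in camta6-5 controls, against 27.7 to 33.2 CPM in wild type with NaCl and 14.7 to 20.01 CPM in wild-type controls. The count of the targeted gene was thus higher in the libraries labelled camta6-5, by 0.50 ± 0.127 (log2, ± SE) with NaCl (edgeR adjusted p = 0.00381) and by 0.96 ± 0.131 without it (edgeR adjusted p = 0.00661), and every genotype difference here is between libraries so labelled. The control library numbered 3 had the highest level in 37 of the 41 tested genes in camta6-5 (90.2%) and in 40 of 41 in wild type (97.6%), while over all genes that library was highest among its controls in 34.9% and 36.4% of cases. The median ratio of this library to the mean of the other controls was 1.36 in camta6-5 and 1.53 in wild type for the 41 genes. Exons of 15 of the 44 genes overlap those of another gene in RefSeq, and without strand their reads cannot be told apart. The labels name no batch that would set these libraries apart, and the counts below are also given without them. The share of reads on 18S ribosomal RNA ran from 0.0211% to 1.03% over the libraries.

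Most of the photosynthesis genes fell with NaCl in both genotypes, and in 26 of the 41 tested genes the fall was smaller in camta6-5. Together the 44 genes took 0.118%, 0.135% and 0.126% of all counts in camta6-5 with NaCl and 0.202%, 0.201% and 0.249% in camta6-5 controls, against 0.0604%, 0.0525% and 0.0689% in wild type with NaCl and 0.210%, 0.186% and 0.271% in wild-type controls. The NaCl groups lay below their controls in both genotypes, the 2 NaCl groups did not overlap, and the 2 control groups did. An exact two-sided permutation test of 3 against 3 libraries gave p = 0.1 for each NaCl comparison and for genotype with NaCl, which is the smallest value it allows, and p = 0.8 for genotype without NaCl. In bulk RNA of whole seedlings, fewer cells of a green type and less of a transcript per cell cannot be told apart.

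With NaCl in camta6-5, 30 of the 41 tested genes fell, none rose, and the median log2 fold change was -0.84 (range -4.06 to 0.18). Over all 18515 genes tested, edgeR called 55.6% in that comparison, 28.2% higher and 27.5% lower, and the median was 0.01. In wild type, 36 of the 41 fell, none rose, and the median was -2.05 (range -4.55 to 0.05). There, 77.5% of all genes were called, 37.9% higher and 39.6% lower, with a median of -0.01. The count of 0 genes that rose was also 0 at an unadjusted p under 0.05, and 0 with DESeq2 and with limma voom. Without both control libraries numbered 3, which was chosen after seeing the data, 31 genes fell in camta6-5 and 34 in wild type. Over all genes that fit called 25% lower in camta6-5 and 36.9% lower in wild type. Without the 5 libraries richest in 18S ribosomal RNA, also chosen after seeing the data (camta6-5 NaCl numbered 1 and 2, camta6-5 control numbered 1 and 3, and wild-type control numbered 1), which leaves 1 library in each camta6-5 group, 10 of 43 tested genes fell in camta6-5 and 37 in wild type. In that fit the share of all genes called lower was 12.9% in camta6-5 and 36.1% in wild type. The fold change of the 41 genes was then negative in 34 of them in camta6-5, against 39 with all libraries, and its median was -0.65.

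No gene of the 41 passed the test between the genotypes without salt. Without NaCl, edgeR called 0 of the 41 genes between camta6-5 and wild type, where it called 0.216% of all genes, 0.0864% higher and 0.13% lower, and the median log2 difference was -0.01. At an unadjusted p under 0.05 there were 3 genes, of which PSBS had a positive difference and LHCB4.2 and RBCS2B a negative one. DESeq2 called RBCS2B alone, and limma voom called none. With NaCl, 27 of the 41 genes were higher in camta6-5 than in wild type and none was lower, with a median difference of 1.12. Over all genes 62.3% were called in that comparison, 33.8% higher and 28.5% lower, and the median was 0.05. The interaction, which is the log2 response to NaCl in camta6-5 minus that in wild type, was positive and called in 26 of the 41 genes and negative and called in none. Over all genes 48.1% were called in it, 27.1% positive and 21% negative, with a median of 0.05, against a median of 1.13 for the 41. The counts of 0 lower and 0 negative were also 0 at an unadjusted p under 0.05 and with DESeq2 and limma voom. Without both controls numbered 3, 29 genes were higher in camta6-5 with NaCl and 28 interactions were positive, and PSBO1 was lower and negative. Over all genes that fit called 32.6% higher and 31.2% lower in camta6-5 with NaCl. It called the interaction positive in 24.1% and negative in 20.4% of all genes. The fit without the 5 libraries richest in 18S ribosomal RNA leaves 1 library in each camta6-5 group. There the median over the 41 genes was 1.19 for the interaction and 1.13 for genotype with NaCl. The genotype difference without NaCl was then negative in 32 of the 41 genes, against 22 with all libraries, and its median was -0.35. The NaCl responses and the interaction rest on the same libraries and are not independent of each other.

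**Figure D1:**
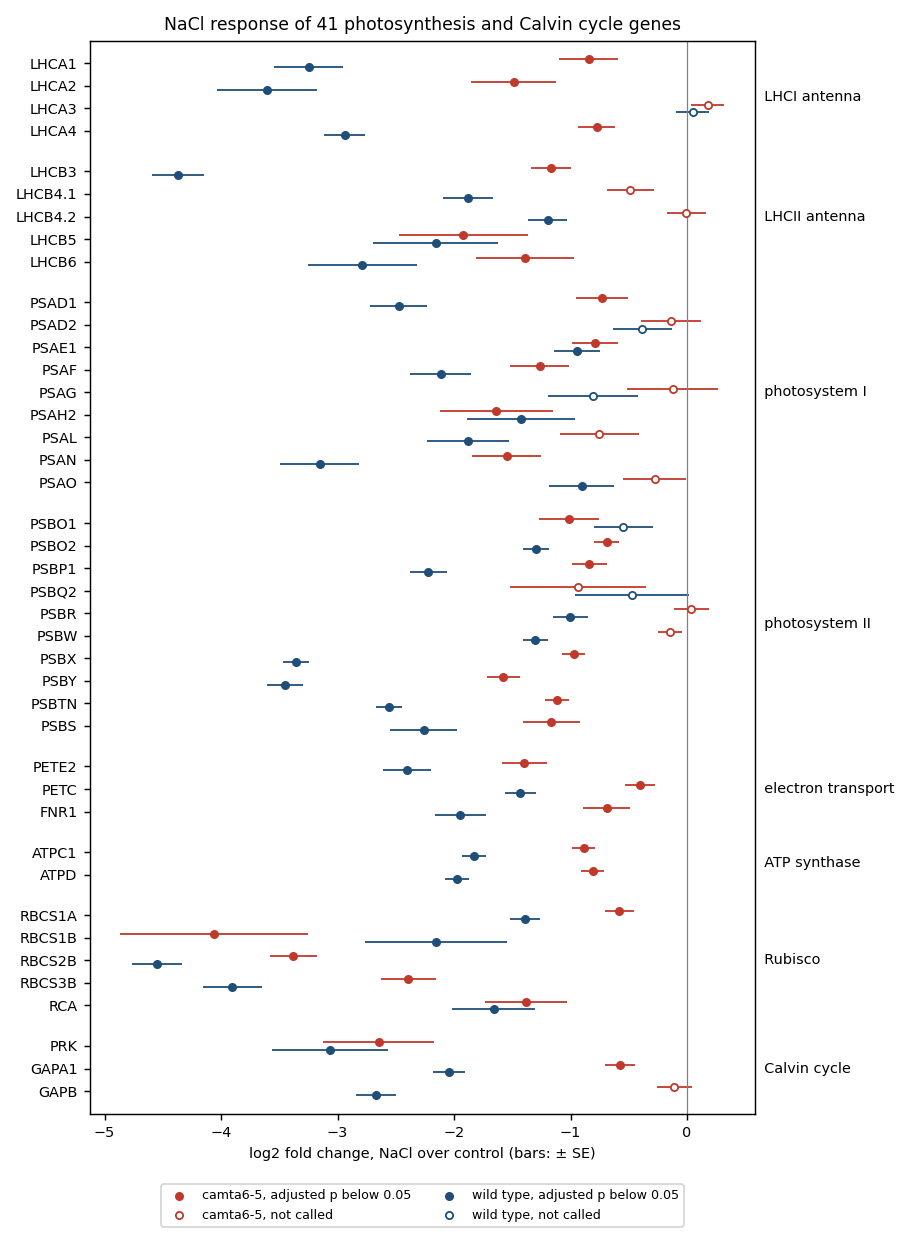
Log2 fold change (NaCl over control, edgeR, ± SE) of each tested gene in camta6-5 and in wild type, ordered by complex. In camta6-5 the values run from -4.06 to 0.18 and in wild type from -4.55 to 0.05, and in most genes the wild-type point lies further below 0.

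Among the 4 LHCI antenna genes, which encode the chlorophyll-binding proteins on one side of photosystem I, LHCA1, LHCA2 and LHCA4 fell with NaCl in both genotypes and LHCA3 was called in neither. LHCA4 (AT3G47470) had the highest level of the 4 per length of transcript, 34.4 CPM per kilobase over the 12 libraries. Its levels were 38.1, 35.8 and 34.2 CPM in camta6-5 with NaCl against 57.6, 57.1 and 70.5 CPM in camta6-5 controls. In wild type they were 9.9, 8.0 and 9.89 CPM with NaCl against 68.7, 53.1 and 91.4 CPM in controls. No library with NaCl reached the level of any control, and the camta6-5 libraries with NaCl all lay above those of wild type. The fold change was -0.78 ± 0.159 in camta6-5 and -2.94 ± 0.175 in wild type, and the interaction was 2.16 ± 0.232 (edgeR adjusted p = 1.75e-05). Exons of LHCA4 overlap those of a neighbour on the opposite strand, and the library kit does not mark strand.

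LHCA1 (AT3G54890) had the largest interaction of the antenna genes of photosystem I. It was at 4.76, 5.30 and 5.53 CPM in camta6-5 with NaCl against 8.12, 7.5 and 12.4 CPM in camta6-5 controls, and at 1.25, 0.992 and 1.34 CPM in wild type with NaCl against 9.53, 7.91 and 16.8 CPM in wild-type controls. Groups with and without NaCl did not overlap in either genotype. The interaction was 2.40 ± 0.390 (edgeR adjusted p = 0.000311), from -0.84 ± 0.254 in camta6-5 and -3.25 ± 0.295 in wild type. Without the camta6-5 control library numbered 3 the camta6-5 response of LHCA1 was -0.59 and no longer passed the test (edgeR adjusted p = 0.0728). LHCA2 (AT3G61470) was at 1.51, 1.71 and 1.77 CPM in camta6-5 with NaCl against 3.36, 3.62 and 7.04 CPM in camta6-5 controls, a log2 change of -1.49 ± 0.365. In wild type it had the largest fall of the LHCI genes, -3.61 ± 0.430, with 0.361, 0.301 and 0.625 CPM with NaCl against 4.76, 3.02 and 8.11 CPM in controls.

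LHCA3 (AT1G61520) stood outside this pattern. Its levels were 4.12, 3.96 and 4.25 CPM in camta6-5 with NaCl, 4.07, 3.16 and 3.65 CPM in camta6-5 controls, 3.59, 3.16 and 3.98 CPM in wild type with NaCl, and 3.32, 3.12 and 3.96 CPM in wild-type controls. Groups with and without NaCl overlapped in each genotype. The response was 0.18 ± 0.143 in camta6-5 (edgeR adjusted p = 0.308) and 0.05 ± 0.143 in wild type (edgeR adjusted p = 0.772), and the interaction was 0.13 ± 0.202. This SE was the smallest among the 15 genes whose interaction was not called, which had a median SE of 0.495 against 0.231 in the 26 called genes. LHCA3 shares 56.5% to 61.1% of its coding bases with the other 3 LHCI genes.

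The promoters of LHCA4 and LHCA3 are printed because these antenna genes of one complex differed in response, 1 called in every NaCl comparison and 1 in none. Each is the window of 250 bases before the annotated gene start in RefSeq (build TAIR10.1), 5′ to 3′ on the gene's strand, which for LHCA4 is chr3:17495034-17495283 (minus) and for LHCA3 is chr1:22699465-22699714 (plus). Capitals mark the G-box (CACGTG), a motif bound by light-response and ABA-response factors of the bZIP and bHLH families, or the I-box (GATAAG), both searched on both strands.
LHCA4: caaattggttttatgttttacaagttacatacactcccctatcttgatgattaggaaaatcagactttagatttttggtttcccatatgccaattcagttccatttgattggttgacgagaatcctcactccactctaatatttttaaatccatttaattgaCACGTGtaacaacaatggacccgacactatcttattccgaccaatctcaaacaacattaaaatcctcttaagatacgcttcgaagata
LHCA3: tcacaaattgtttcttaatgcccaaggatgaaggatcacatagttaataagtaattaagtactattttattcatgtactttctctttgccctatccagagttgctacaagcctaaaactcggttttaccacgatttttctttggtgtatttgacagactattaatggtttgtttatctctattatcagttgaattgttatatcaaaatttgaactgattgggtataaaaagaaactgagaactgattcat
LHCA4 has 1 G-box and LHCA3 has neither motif in this window. Of the other LHCI genes, LHCA1 has 2 I-boxes, and LHCA2, which fell in both genotypes, has neither motif. LHCB3, the gene with the largest interaction, has neither motif as well. The printed pair was chosen by response, and a link between motif and response was not tested.

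Over the 44 genes, 9 held a G-box (20.5%) against 6.49% of 27443 promoters of the same length, and 13 held an I-box (29.6%) against 12.3%. The element CCAATC stood in 11 (25.0%) against 10.2%, the ABRE core ACGTG, which lies within the G-box, in 15 (34.1%) against 22.9%, and the core CGCG of the motif that CAMTA factors are known to bind in 5 (11.4%) against 10.1%. Of the 41 tested genes, 17 had a G-box or an I-box and 24 had neither. Their median log2 responses to NaCl were -0.94 and -0.82 in camta6-5 and -2.12 and -1.96 in wild type, and their median interactions were 1.17 and 1.07. A motif match describes the letters of the window and was not tested as a binding site.

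Of the 6 LHCII antenna genes, LHCB2.2 was nearly without reads and 5 were tested. With NaCl, 3 of them (LHCB3, LHCB5 and LHCB6) fell in camta6-5 and all 5 fell in wild type, and the interaction was called in LHCB3, LHCB4.1 and LHCB4.2. LHCB3 (AT5G54270, chr5:22038165-22039568, plus strand), which encodes a subunit of the LHCII trimer, had the largest interaction of all 41 genes. It was at 4.81, 4.64 and 6.43 CPM in camta6-5 with NaCl against 11.8, 9.52 and 14.2 CPM in camta6-5 controls, and at 0.667, 0.571 and 0.455 CPM in wild type with NaCl against 11.8, 10.2 and 13.3 CPM in wild-type controls. The control groups of the 2 genotypes overlapped, and with NaCl each camta6-5 library was far above each wild-type library. Its fold change was -1.17 ± 0.169 in camta6-5 and -4.37 ± 0.221 in wild type, with an interaction of 3.20 ± 0.284 (edgeR adjusted p = 4.94e-06). Exons of LHCB3 also overlap a gene on the opposite strand.

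LHCB4.1 (AT5G01530), which encodes one form of the minor antenna protein CP29, had the highest level of the LHCII genes, 28.2 CPM per kilobase. It was at 36.4, 33.4 and 39.4 CPM in camta6-5 with NaCl against 44.8, 44.9 and 63.2 CPM in camta6-5 controls, and at 15.9, 13.5 and 15.6 CPM in wild type with NaCl against 49.0, 39.3 and 77.6 CPM in wild-type controls. The groups with and without NaCl were apart in both genotypes, although the camta6-5 difference of -0.49 ± 0.204 missed the threshold (edgeR adjusted p = 0.0574) and the wild-type fall of 1.88 ± 0.213 passed it. The camta6-5 fall of LHCB4.1 did pass with DESeq2 (adjusted p = 0.0236) and with RLE scaling (edgeR adjusted p = 0.047). It also passed with no filter (edgeR adjusted p = 0.0366) and in the fit of the compared groups alone (edgeR adjusted p = 0.016). Without the control libraries numbered 3 the camta6-5 value was -0.30 and passed (edgeR adjusted p = 0.0366). LHCB4.2, a second gene for CP29, was at 8.20 to 10.6 CPM in camta6-5 with NaCl and 9.30 to 10.6 CPM in camta6-5 controls, a difference of -0.01 ± 0.166, whereas it fell by 1.2 ± 0.169 on the log2 scale in wild type. LHCB5, which encodes the minor antenna protein CP26, fell in both genotypes (by 1.92 ± 0.555 in camta6-5 and 2.16 ± 0.537 in wild type, on the log2 scale), with an interaction of 0.24 ± 0.781. Without the camta6-5 control numbered 3 the camta6-5 change of LHCB5 was -1.17 and no longer passed (edgeR adjusted p = 0.0728). LHCB6, for the minor antenna protein CP24, was at 0.406 to 1.0 CPM in camta6-5 with NaCl against 1.11 to 2.82 CPM in camta6-5 controls, and at 0.222 to 0.361 CPM in wild type with NaCl against 1.34 to 3.29 CPM in wild-type controls, and its interaction of 1.4 ± 0.638 missed the threshold (edgeR adjusted p = 0.0872). That interaction passed without the camta6-5 control numbered 3 (1.76, edgeR adjusted p = 0.0341), the camta6-5 NaCl library numbered 1 (edgeR adjusted p = 0.0456) or the wild-type control numbered 2 (edgeR adjusted p = 0.0498). The camta6-5 fall of LHCB6 did not pass without that camta6-5 control (-1.01, edgeR adjusted p = 0.0719) or without that NaCl library (-1.09, edgeR adjusted p = 0.0592). Between genotypes with NaCl, LHCB6 was called higher in camta6-5. That call was lost with RLE scaling (edgeR adjusted p = 0.0553), no scaling (edgeR adjusted p = 0.0588) and limma voom (adjusted p = 0.13). It was also lost without the camta6-5 NaCl library numbered 2 or 3, or any wild-type NaCl library (edgeR adjusted p of 0.0817 to 0.164). LHCB2.2 had 0 counts in camta6-5 with NaCl and 2 in camta6-5 controls, against 12 in wild type with NaCl and 2 in wild-type controls, and with no filter it was called lower in camta6-5 than in wild type with NaCl (edgeR adjusted p = 0.0126).

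Photosystem I passes electrons to ferredoxin. Of its 9 tested genes, 5 fell in camta6-5 and 7 in wild type. The interaction was called in PSAD1 and PSAN only, both positive, and over all genes it was called positive in 27.1%. Its median over the 9 was 0.69, and the interactions of PSAF and PSAL passed in some of the fits given below. PSAD1 and PSAD2 are paralogs, identical in 88.0% of aligned coding bases, for the subunit that docks ferredoxin. PSAD1 (AT4G02770) was at 8.53, 10.7 and 10.5 CPM in camta6-5 with NaCl against 13.6, 14.9 and 20.8 CPM in camta6-5 controls, and at 4.25, 3.01 and 3.47 CPM in wild type with NaCl against 17.2, 14.7 and 28.0 CPM in wild-type controls. Its groups with and without NaCl did not overlap in either genotype. PSAD2 (AT1G03130) was at 4.12, 3.22 and 4.22 CPM in camta6-5 with NaCl against 3.89, 3.19 and 5.62 CPM in camta6-5 controls, and at 4.89, 2.74 and 3.55 CPM in wild type with NaCl against 4.59, 3.70 and 6.35 CPM in wild-type controls. Its groups overlapped in both genotypes.

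PSAD1 fell by 0.73 ± 0.226 on the log2 scale in camta6-5 and by 2.47 ± 0.244 in wild type, with an interaction of 1.75 ± 0.330 (edgeR adjusted p = 0.000894), and PSAD2 passed no test, with responses of -0.14 ± 0.259 in camta6-5 and -0.38 ± 0.255 in wild type and an interaction of 0.25 ± 0.363. The PSAD1 share of the summed CPM per kilobase of the pair was 68.3 ± 5.10% in camta6-5 with NaCl against 76.7 ± 2.64% in camta6-5 controls, and 45.2 ± 2.90% in wild type with NaCl against 77.2 ± 1.46% in wild-type controls (SD, n = 3 each). An exact permutation test gave p = 0.1 for NaCl in each genotype and for genotype with NaCl, the smallest possible at n = 3. The camta6-5 fall of PSAD1 did not pass without the camta6-5 control numbered 3 (-0.52, edgeR adjusted p = 0.0785) or the camta6-5 NaCl library numbered 1 (-0.63, edgeR adjusted p = 0.0605).

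PSAN (AT5G64040), which encodes a small lumen subunit, was at 0.986, 1.31 and 0.838 CPM in camta6-5 with NaCl against 2.39, 2.58 and 4.29 CPM in camta6-5 controls, a log2 change of -1.55 ± 0.294. In wild type it had the largest fall of the complex, -3.15 ± 0.341, with 0.250, 0.391 and 0.341 CPM with NaCl against 2.41, 2.35 and 4.05 CPM in controls, and the groups did not overlap in either genotype. PSAF (AT1G31330), the plastocyanin-docking subunit, was at 6.15, 8.15 and 6.43 CPM in camta6-5 with NaCl against 14.1, 13.8 and 22.1 CPM in camta6-5 controls, and at 3.70, 4.18 and 3.89 CPM in wild type with NaCl against 15.2, 11.4 and 24.5 CPM in wild-type controls. All 3 camta6-5 libraries with NaCl lay above those of wild type, and the interaction of 0.85 ± 0.361 missed the threshold (edgeR adjusted p = 0.0678). It passed with DESeq2 (adjusted p = 0.0498), without the camta6-5 control numbered 3 (1.09, edgeR adjusted p = 0.0198) and without the wild-type control numbered 2 (1.06, edgeR adjusted p = 0.0173). The called PSAF difference between genotypes with NaCl was lost without the camta6-5 NaCl library numbered 2 (edgeR adjusted p = 0.0709). It was also lost without the wild-type NaCl library numbered 1 (edgeR adjusted p = 0.0666) or 3 (edgeR adjusted p = 0.0556). PSAE1, a stromal subunit, fell in both genotypes, with log2 changes of -0.79 ± 0.198 in camta6-5 and -0.95 ± 0.194 in wild type, with an interaction of 0.15 ± 0.277. The subunits PSAL and PSAO, on the side where LHCII can dock, were not called in camta6-5 and fell in wild type. PSAL had log2 changes of -0.75 ± 0.341 in camta6-5 and -1.88 ± 0.351 in wild type, PSAO had -0.28 ± 0.272 in camta6-5 and -0.90 ± 0.280 in wild type, and their interactions missed the threshold. The PSAL interaction passed without the camta6-5 control numbered 3 (edgeR adjusted p = 0.0174) and without the wild-type control numbered 2 (1.4, edgeR adjusted p = 0.0179), and its camta6-5 fall passed without the camta6-5 control numbered 2 (-0.96, edgeR adjusted p = 0.0407). The wild-type fall of PSAO did not pass without the wild-type control numbered 3 (-0.63, edgeR adjusted p = 0.0634). PSAH2, a neighbour of PSAL, was at 0.0870 to 1.05 CPM over the libraries and fell in both genotypes. Its camta6-5 fall did not pass without the camta6-5 control numbered 3 (edgeR adjusted p = 0.0561) or the camta6-5 NaCl library numbered 1 (edgeR adjusted p = 0.0532), nor its wild-type fall without the wild-type control numbered 3 (-0.89, edgeR adjusted p = 0.0961). PSAG (AT1G55670), which sits beside the LHCI belt, was at 0.899, 0.570 and 0.737 CPM in camta6-5 with NaCl against 0.529, 0.652 and 1.23 CPM in camta6-5 controls, and at 0.528, 0.451 and 0.768 CPM in wild type with NaCl against 0.851, 0.672 and 1.56 CPM in wild-type controls. Groups overlapped in both genotypes and neither change was called (-0.12 ± 0.392 in camta6-5 and -0.81 ± 0.388 in wild type), although the wild-type change passed without the wild-type control numbered 2 (-1.02, edgeR adjusted p = 0.037). PSAK, another outer subunit, had 3 counts in camta6-5 with NaCl and 9 in camta6-5 controls, against 26 in wild type with NaCl and 24 in wild-type controls. The ratio of PSAK in camta6-5 controls over NaCl was 3.21, with a 95% counting interval of 0.801 to 18.4, which includes 1. PSAK passed the filter in some other fits, and was called lower in camta6-5 than in wild type with NaCl in 5 fits that left out a library, with log2 differences of -2.43 to -3.71, and with no filter, at -2.92 (edgeR adjusted p = 0.0121).

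**Figure D2:**
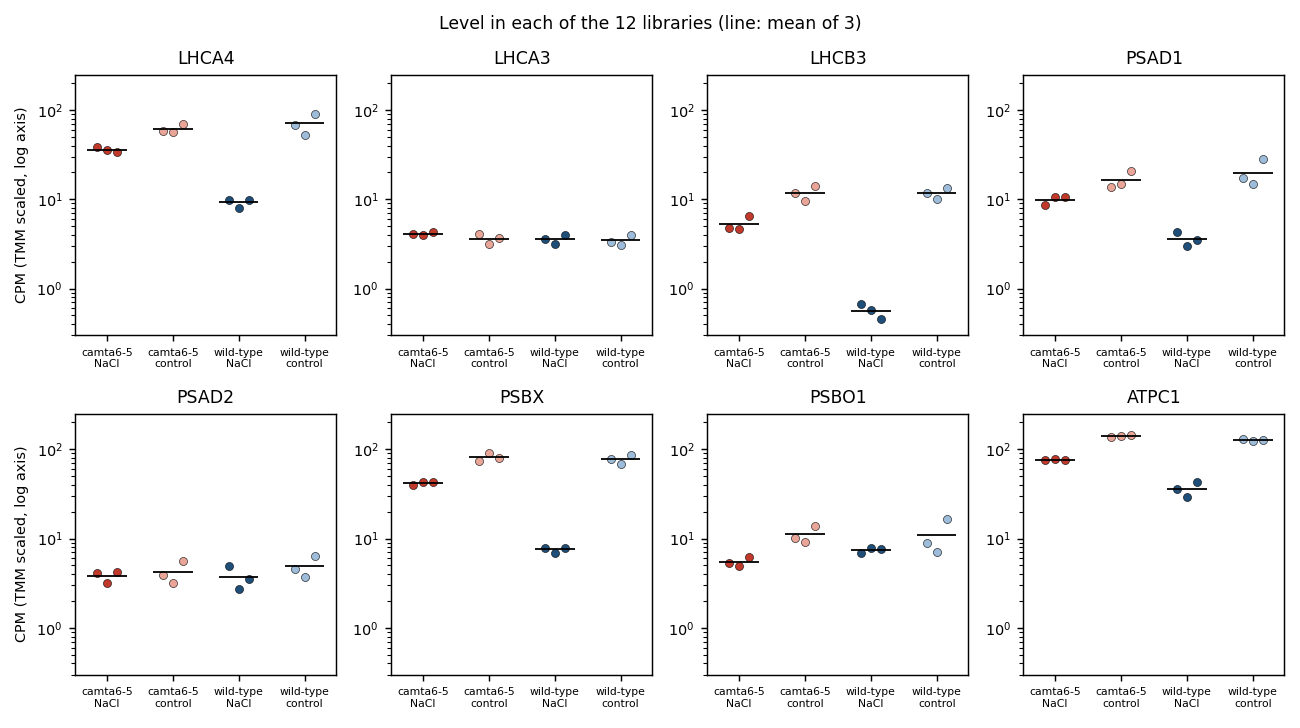
Levels in each of the 12 libraries for 8 genes, in CPM on a log axis that is the same in every panel, with groups left to right as camta6-5 NaCl, camta6-5 control, wild-type NaCl and wild-type control, and a line at the mean of 3 libraries. LHCA4, LHCB3, PSAD1, PSBX and ATPC1 are lowest in wild type with NaCl, LHCA3 and PSAD2 overlap between groups, and PSBO1 is lowest in camta6-5 with NaCl.

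Photosystem II, which splits water, had called interactions in 8 of its 10 genes, all positive, and 7 fell in camta6-5 against 8 in wild type. PSBX (AT2G06520, chr2:2587729-2588448, minus strand), a small membrane subunit, had the highest level of the complex, 72.7 CPM per kilobase, and the largest interaction. Its levels were 39.4, 42.8 and 43.3 CPM in camta6-5 with NaCl against 75.0, 91.7 and 79.7 CPM in camta6-5 controls, and 7.92, 6.92 and 7.93 CPM in wild type with NaCl against 79.0, 68.2 and 86.4 CPM in wild-type controls. The 2 control groups overlapped and the 2 NaCl groups were far apart. The response was -0.97 ± 0.0991 in camta6-5 and -3.36 ± 0.111 in wild type, and the interaction was 2.38 ± 0.146 (edgeR adjusted p = 3.38e-07). PSBY (AT1G67740), another small membrane subunit, was at 19.3, 22.2 and 18.3 CPM in camta6-5 with NaCl against 54.2, 56.2 and 68.1 CPM in camta6-5 controls, a log2 change of -1.58 ± 0.139. In wild type it had the largest fall of the complex, -3.45 ± 0.155, with 4.98, 4.36 and 5.68 CPM with NaCl against 53.3, 45.6 and 65.9 CPM in controls. PSBTN, a small lumen subunit, fell by 1.11 ± 0.103 on the log2 scale in camta6-5 and by 2.56 ± 0.110 in wild type.

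PSBR and PSBW were not called in camta6-5 and fell in wild type, and in both the difference itself passed the interaction test. PSBR (AT1G79040), which encodes a subunit near the oxygen-evolving complex, was at 39.5, 41.2 and 40.5 CPM in camta6-5 with NaCl against 37.2, 40.1 and 40.8 CPM in camta6-5 controls, and at 21.2, 17.6 and 21.6 CPM in wild type with NaCl against 37.5, 30.9 and 52.7 CPM in wild-type controls. Groups with and without NaCl overlapped in camta6-5 and were apart in wild type. Its log2 response was 0.04 ± 0.148 in camta6-5 and -1.0 ± 0.151 in wild type, and the interaction was 1.04 ± 0.212 (edgeR adjusted p = 0.00146). PSBW, a small membrane subunit, had responses of -0.15 ± 0.104, which missed the threshold (edgeR adjusted p = 0.241), in camta6-5 and -1.3 ± 0.107 in wild type, with an interaction of 1.16 ± 0.149. The genes PSBR and PSBP1 overlap exons of neighbours, and PSBW does not.

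The proteins that shield the manganese cluster on the lumen side differed in their calls. PSBO1 and PSBO2 encode the 2 forms of the manganese-stabilising protein and match in 83.6% of coding bases. PSBO1 (AT5G66570) was at 5.28, 4.96 and 6.30 CPM in camta6-5 with NaCl against 10.1, 9.26 and 14.0 CPM in camta6-5 controls, and at 6.98, 7.82 and 7.56 CPM in wild type with NaCl against 9.02, 7.09 and 16.6 CPM in wild-type controls. It fell by 1.02 ± 0.258 on the log2 scale in camta6-5, with groups apart, while in wild type the groups overlapped and the change of -0.55 ± 0.252 missed the threshold (edgeR adjusted p = 0.0626). The wild-type fall did pass with DESeq2 (adjusted p = 0.0453) and with no filter (edgeR adjusted p = 0.0442), and without the wild-type control numbered 2 (-0.76, edgeR adjusted p = 0.00956). The interaction of -0.47 ± 0.360 was not called (edgeR adjusted p = 0.299). Without the wild-type control numbered 3 the interaction was -0.93 and passed (edgeR adjusted p = 0.00787), and without both controls numbered 3 it was -0.73 (edgeR adjusted p = 0.00991). PSBO2 fell in both genotypes, by 0.69 ± 0.107 on the log2 scale in camta6-5 and by 1.3 ± 0.109 in wild type, with an interaction of 0.61 ± 0.152. The PSBO2 share of the summed CPM per kilobase of the pair was 70.6 ± 2.80% in camta6-5 with NaCl against 65.9 ± 3.23% in camta6-5 controls, and 55.2 ± 3.02% in wild type with NaCl against 68.6 ± 7.78% in wild-type controls (SD, n = 3 each). The share was thus higher with NaCl in camta6-5 and lower with NaCl in wild type, at an exact permutation p = 0.1 in each, the smallest possible. PSBO1 was named after its values were seen, as the gene that fell in camta6-5 and missed the threshold in wild type when all libraries were used.

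PSBP1, the extrinsic protein of the oxygen-evolving complex, was at 48.9 to 51.4 CPM in camta6-5 with NaCl against 78.8 to 103 CPM in camta6-5 controls, and at 15.1 to 20.1 CPM in wild type with NaCl against 67.8 to 106 CPM in wild-type controls, with an interaction of 1.38 ± 0.215. PSBQ2, a second extrinsic protein, had 6, 2 and 3 counts in camta6-5 with NaCl against 9, 3 and 8 in camta6-5 controls, and 11, 3 and 8 in wild type with NaCl against 8, 10 and 11 in wild-type controls, and was called in no comparison. PSBS (AT1G44575), which senses lumen acidity in the quenching of excess light, was at 3.31, 4.36 and 2.98 CPM in camta6-5 with NaCl against 6.34, 8.51 and 9.10 CPM in camta6-5 controls, and at 0.778, 0.872 and 1.11 CPM in wild type with NaCl against 3.54, 3.27 and 6.48 CPM in wild-type controls. It had the largest positive genotype difference without NaCl, 0.85 ± 0.242, which did not pass the adjustment over all genes (edgeR adjusted p = 0.253), and the control groups overlapped. Without the wild-type control numbered 3 that difference was 1.22 (edgeR adjusted p = 0.0466). The interaction of PSBS was 1.09 ± 0.379 (edgeR adjusted p = 0.0295) and was 0.69 (edgeR adjusted p = 0.0754) without that library. It also missed the threshold with limma voom (adjusted p = 0.0639) and without the camta6-5 control numbered 1, the camta6-5 NaCl library numbered 2 or the wild-type NaCl library numbered 1 or 2, with values of 0.92 to 1.05 and edgeR adjusted p of 0.0724 to 0.0853.

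All 3 tested electron carriers fell in both genotypes, and the interaction was called and positive in each. PETE2 (AT1G20340), the main plastocyanin gene, was at 24.1, 26.0 and 27.1 CPM in camta6-5 with NaCl against 58.8, 64.4 and 80.1 CPM in camta6-5 controls, and at 11.7, 9.41 and 14.0 CPM in wild type with NaCl against 56.8, 46.2 and 83.4 CPM in wild-type controls. The NaCl groups were below their controls in each genotype, and the change was -1.4 ± 0.194 in camta6-5 and -2.40 ± 0.204 in wild type, with an interaction of 1.01 ± 0.275. PETE1, the second plastocyanin gene, did not pass the filter, with 5 counts in camta6-5 with NaCl and 18 in camta6-5 controls, against 6 in wild type with NaCl and 30 in wild-type controls. With no filter its wild-type change was -2.33 and was called (edgeR adjusted p = 0.013). PETC, the Rieske protein of the cytochrome b6f complex, fell by 0.40 ± 0.129 in camta6-5 and 1.43 ± 0.134 in wild type on the log2 scale. FNR1 (AT5G66190), which passes electrons from ferredoxin to NADP, was at 7.77, 7.18 and 7.13 CPM in camta6-5 with NaCl against 12.4, 8.35 and 14.8 CPM in camta6-5 controls, and at 2.81, 2.44 and 2.70 CPM in wild type with NaCl against 9.64, 7.85 and 13.2 CPM in wild-type controls. Its interaction, the largest of the 3, was 1.26 ± 0.297 (edgeR adjusted p = 0.0037). Without the camta6-5 control numbered 3 the camta6-5 falls did not pass for PETC (edgeR adjusted p = 0.0624) and FNR1 (edgeR adjusted p = 0.0591), and the PETC fall did not pass without the camta6-5 NaCl library numbered 1 (edgeR adjusted p = 0.0563).

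Both nuclear subunits of the ATP synthase were lower with NaCl in both genotypes. ATPC1 (AT4G04640), the gamma subunit that turns within the catalytic head, had 62.9 CPM per kilobase over the 12 libraries, behind only RBCS1A, RBCS3B and PSBX among the 44. It was at 75.5, 78.7 and 75.9 CPM in camta6-5 with NaCl against 138, 142 and 146 CPM in camta6-5 controls, and at 35.7, 29.4 and 42.7 CPM in wild type with NaCl against 132, 125 and 126 CPM in wild-type controls. Replicates lay close together, the NaCl groups were far below their controls, and the log2 changes were -0.89 ± 0.1 in camta6-5 and -1.83 ± 0.104 in wild type, with an interaction of 0.94 ± 0.142. ATPD (AT4G09650), the delta subunit that joins the head to the stalk, was at 36.3, 41.9 and 38.9 CPM in camta6-5 with NaCl against 65.2, 66.2 and 74.1 CPM in camta6-5 controls, and at 15.5, 17.4 and 18.7 CPM in wild type with NaCl against 69.3, 59.8 and 73.8 CPM in wild-type controls. Its changes were -0.81 ± 0.0961 in camta6-5 and -1.97 ± 0.1 in wild type, and its interaction was 1.16 ± 0.137 (edgeR adjusted p = 3.34e-05).

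The small subunit of Rubisco, the enzyme that fixes CO2, is encoded by 4 genes that responded unequally. RBCS1A lies on chromosome 1, and RBCS1B, RBCS2B and RBCS3B lie in a row on the minus strand of chromosome 5 (chr5:15376988-15385320). All 4, and the activase gene RCA, fell with NaCl in both genotypes. RBCS1A (AT1G67090), the most abundant of the 44 genes, was at 536, 655 and 558 CPM in camta6-5 with NaCl against 802, 890 and 927 CPM in camta6-5 controls, and at 302, 266 and 355 CPM in wild type with NaCl against 786, 710 and 929 CPM in wild-type controls. The NaCl groups were below their controls and apart from each other. Its log2 change was -0.58 ± 0.125 in camta6-5 and -1.39 ± 0.127 in wild type, and the interaction was 0.81 ± 0.177 (edgeR adjusted p = 0.00227).

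RBCS3B (AT5G38410) was at 39.6, 52.8 and 44.02 CPM in camta6-5 with NaCl against 200, 202 and 314 CPM in camta6-5 controls, and at 15.9, 15.9 and 20.1 CPM in wild type with NaCl against 229, 189 and 359 CPM in wild-type controls. Its changes were -2.39 ± 0.235 in camta6-5 and -3.90 ± 0.253 in wild type, with an interaction of 1.51 ± 0.323 (edgeR adjusted p = 0.00201). Its NaCl groups lay far below their controls. RBCS2B (AT5G38420) was at 3.92, 4.84 and 3.65 CPM in camta6-5 with NaCl against 37.4, 39.8 and 52.5 CPM in camta6-5 controls, a log2 change of -3.38 ± 0.201. In wild type it had the largest fall of all 41 genes, -4.55 ± 0.211, with 2.45, 3.01 and 3.38 CPM with NaCl against 60.9, 57.1 and 89.2 CPM in controls. The RBCS2B levels of the 2 NaCl groups were close but apart, and their difference of 0.49 ± 0.227 was not called (edgeR adjusted p = 0.0731), although it was in the fit of those groups alone (edgeR adjusted p = 0.0375). Its camta6-5 controls lay below every wild-type control, a difference of -0.68 ± 0.17 that missed the threshold with edgeR (adjusted p = 0.188) and passed it with DESeq2 (adjusted p = 0.0349). RBCS1B had 3 counts in camta6-5 with NaCl and 52 in camta6-5 controls, against 13 in wild type with NaCl and 56 in wild-type controls, and its camta6-5 ratio of control over NaCl was 18.5 with a 95% counting interval of 6.01 to 92.9.

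The promoters of RBCS2B and RBCS3B are shown because these tandem copies share 96.9% of coding bases and differ in the motifs before their RefSeq starts. The windows are chr5:15382072-15382321 and chr5:15378643-15378892 (both minus strand, TAIR10.1, from RefSeq), with G-box and I-box matches in capitals.
RBCS2B: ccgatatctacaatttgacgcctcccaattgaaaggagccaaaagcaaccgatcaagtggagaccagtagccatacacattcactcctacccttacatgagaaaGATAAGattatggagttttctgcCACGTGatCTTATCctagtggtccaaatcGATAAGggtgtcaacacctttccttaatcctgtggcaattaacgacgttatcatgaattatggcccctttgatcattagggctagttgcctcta
RBCS3B: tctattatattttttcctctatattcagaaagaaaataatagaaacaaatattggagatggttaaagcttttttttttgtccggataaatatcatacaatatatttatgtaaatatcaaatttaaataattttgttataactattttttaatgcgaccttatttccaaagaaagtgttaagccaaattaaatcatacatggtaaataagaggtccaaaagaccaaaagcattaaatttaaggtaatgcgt
RBCS2B holds 1 G-box and 3 I-boxes, and RBCS3B holds neither in the 250 bases before its annotated start, which is the outermost one that RefSeq gives. The start of RBCS3B is 15378642 in RefSeq and 15378416 in the deposited table, while that of RBCS2B is 15382071 and 15382035. The RBCS3B window thus lies further upstream of the deposited start, and the 2 windows are not matched promoter regions.

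With NaCl most of the small-subunit signal came from RBCS1A. Its share of the summed CPM per kilobase of the 4 genes was 92.9%, 92.4% and 92.6% in camta6-5 with NaCl against 77.7%, 79.0% and 72.3% in camta6-5 controls, and 94.5%, 93.5% and 94.0% in wild type with NaCl against 73.1%, 74.2% and 67.7% in wild-type controls. The RBCS3B share was 6.47 ± 0.278% in camta6-5 with NaCl against 18.5 ± 3.13% in camta6-5 controls, and 4.76 ± 0.285% in wild type with NaCl against 20.1 ± 3.0% in wild-type controls (SD, n = 3 each). The RBCS2B share was 0.889 ± 0.0588% in camta6-5 with NaCl against 5.09 ± 0.405% in camta6-5 controls, and 1.23 ± 0.199% in wild type with NaCl against 8.19 ± 0.575% in wild-type controls. For NaCl in each genotype the groups did not overlap in any of these shares (exact two-sided permutation p = 0.1, the smallest possible). Between genotypes without NaCl, the RBCS2B share gave an exact p = 0.1, the RBCS1A share 0.3 and the RBCS3B share 0.5. The tandem copies match each other in 96.7% to 97.3% of coding bases and RBCS1A in 90.4% to 90.6%. How reads that match several genes were counted is not given in the sources used here, so the split between the copies is uncertain.

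**Figure D3:**
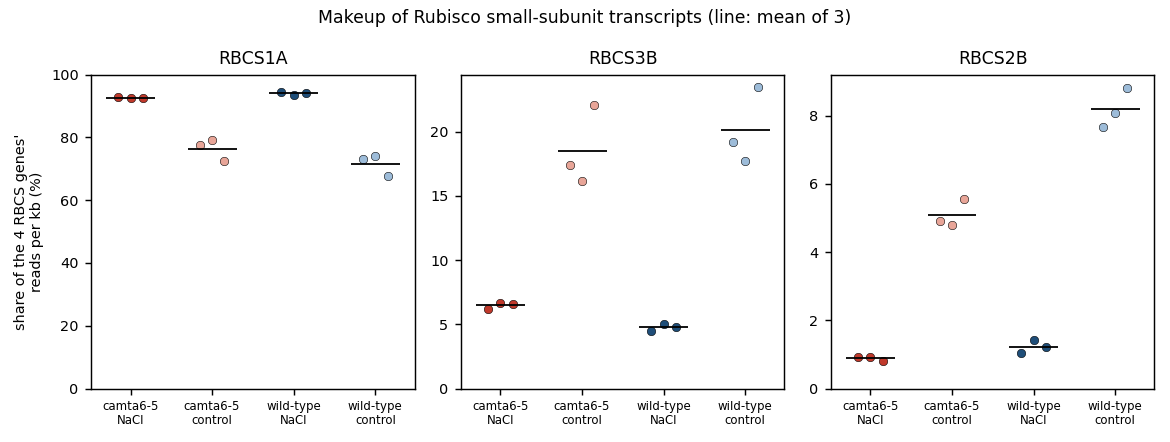
Share of the Rubisco small-subunit CPM per kilobase from RBCS1A, RBCS3B and RBCS2B in each library (percent), grouped as camta6-5 NaCl, camta6-5 control, wild-type NaCl and wild-type control. RBCS1A holds 92.4% or more in every NaCl library of both genotypes and 79.0% or less in every control.

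RCA (AT2G39730), the activase that frees Rubisco's active site, was at 13.9, 13.6 and 14.6 CPM in camta6-5 with NaCl against 29.01, 24.2 and 56.8 CPM in camta6-5 controls, and at 10.6, 11.8 and 12.2 CPM in wild type with NaCl against 27.3, 21.6 and 60.6 CPM in wild-type controls. The control numbered 3 was the highest of its group in both genotypes, and the NaCl groups lay below every control. The change was -1.38 ± 0.353 in camta6-5 and -1.66 ± 0.357 in wild type, and the interaction of 0.28 ± 0.495 was not called.

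Of the 3 Calvin cycle enzymes, GAPB and GAPA1 had called interactions and PRK did not. GAPB (AT1G42970, chr1:16127353-16129895, plus strand), which with GAPA1 forms the chloroplast glyceraldehyde-phosphate dehydrogenase, was at 16.8, 15.4 and 16.0 CPM in camta6-5 with NaCl against 16.1, 14.9 and 21.0 CPM in camta6-5 controls, groups that overlapped. In wild type it was at 2.36, 2.62 and 3.24 CPM with NaCl against 18.4, 13.9 and 20.1 CPM in controls, far apart. The log2 response was -0.11 ± 0.151 in camta6-5 (edgeR adjusted p = 0.561) and -2.67 ± 0.173 in wild type, with an interaction of 2.56 ± 0.229 (edgeR adjusted p = 5.38e-06). GAPA1 (AT3G26650) fell in both, with 51.2, 52.3 and 49.3 CPM in camta6-5 with NaCl against 68.6, 74.1 and 84.7 CPM in camta6-5 controls, and 17.7, 15.7 and 20.4 CPM in wild type with NaCl against 76.1, 59.1 and 87.2 CPM in wild-type controls. Its changes were -0.57 ± 0.130 in camta6-5 and -2.05 ± 0.137 in wild type, with an interaction of 1.47 ± 0.187. PRK (AT1G32060), which makes the CO2 acceptor of Rubisco, had the largest fall of the 3 in wild type and in camta6-5, at low counts. It was at 0.464, 0.342 and 0.435 CPM in camta6-5 with NaCl against 2.18, 1.44 and 4.22 CPM in camta6-5 controls, and at 0.278, 0.180 and 0.398 CPM in wild type with NaCl against 1.65, 1.65 and 4.02 CPM in wild-type controls. Its changes were -2.65 ± 0.478 in camta6-5 and -3.07 ± 0.501 in wild type, and its interaction of 0.42 ± 0.715 was not called.

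The share of the plastid genes GAPA1, GAPA2 and GAPB in the summed CPM per kilobase of these and the cytosolic GAPC1 and GAPC2 was 4.73 ± 0.0756% in camta6-5 with NaCl against 6.11 ± 1.01% in camta6-5 controls, and 1.22 ± 0.177% in wild type with NaCl against 6.24 ± 1.22% in wild-type controls (SD, n = 3 each). An exact permutation test gave p = 0.1, the smallest possible, for NaCl in each genotype and for genotype with NaCl, and 0.8 for genotype without NaCl. The cytosolic gene GAPC1, of glycolysis, was at 591 ± 43.3 CPM in camta6-5 with NaCl and 747 ± 90.9 CPM in camta6-5 controls, against 1181 ± 104 CPM in wild type with NaCl and 718 ± 43.3 CPM in wild-type controls. It fell by 0.34 ± 0.102 on the log2 scale in camta6-5 and rose by 0.72 ± 0.102 in wild type. The camta6-5 fall of GAPC1 did not pass without the camta6-5 NaCl library numbered 3 (edgeR adjusted p = 0.056).

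**Figure D4:**
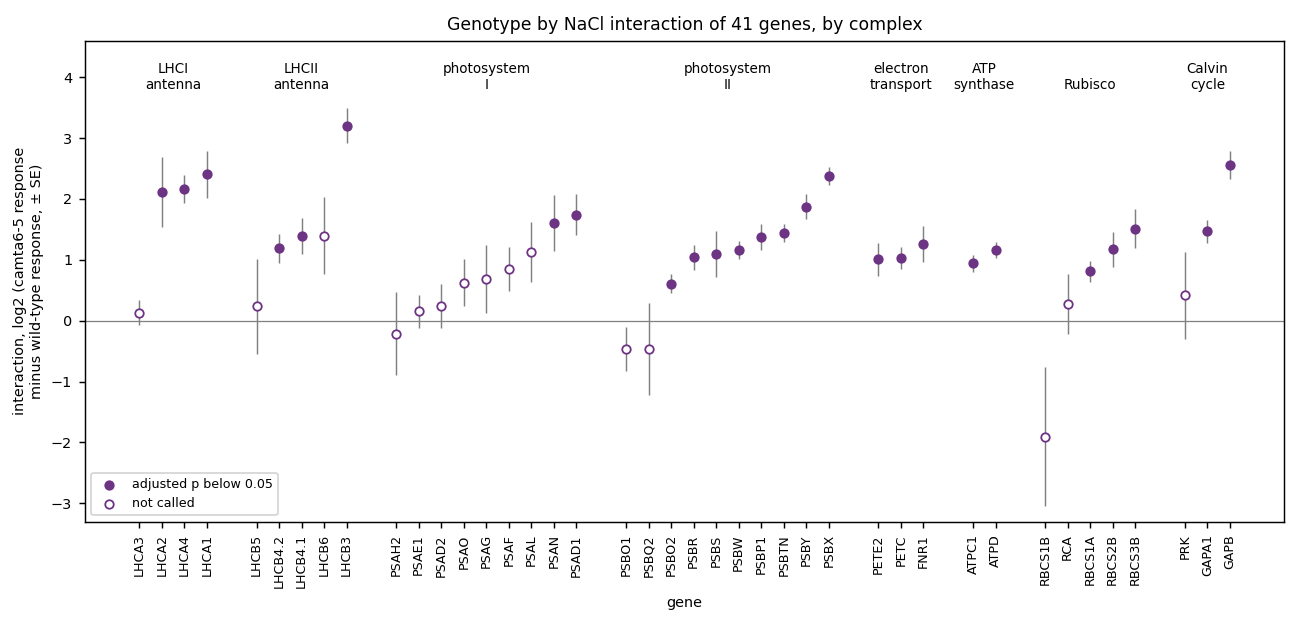
Genotype by NaCl interaction (log2 response in camta6-5 minus log2 response in wild type, ± SE) of the 41 tested genes, by complex. The 26 called genes run from 0.61 (PSBO2) to 3.20 (LHCB3), and the 15 not called include LHCA3 at 0.13 and RBCS1B at -1.91.

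Other genes of the same functions moved in both directions. Over all genes tested, 28.2% were called higher and 27.5% lower with NaCl in camta6-5, and 37.9% and 39.6% in wild type. The interaction was called positive in 27.1% and negative in 21% of all genes. Of 22 further nuclear photosynthesis genes 19 were tested: with NaCl 3 rose and 8 fell in camta6-5, and 3 rose and 13 fell in wild type, with 7 positive and no negative interactions called. PSBQ1, an extrinsic protein of photosystem II, fell by 1.80 ± 0.155 in camta6-5 and 3.25 ± 0.166 in wild type on the log2 scale. FD1, a ferredoxin, fell by 1.41 ± 0.130 in camta6-5 and 2.44 ± 0.135 in wild type, and PSB27, an assembly factor of photosystem II, and ATPG, of the ATP synthase stalk, fell in wild type, while their camta6-5 responses of 0.13 ± 0.0815 (PSB27) and 0.12 ± 0.0908 (ATPG) were not called. Of 16 further Calvin cycle genes, 6 rose and 5 fell in camta6-5, and 4 rose and 11 fell in wild type, with 11 positive and 1 negative interaction called. PGK1, a phosphoglycerate kinase of the plastid, was at 91.2 ± 6.83 CPM in camta6-5 with NaCl and 91.0 ± 11.3 CPM in camta6-5 controls, against 24.6 ± 3.54 CPM in wild type with NaCl and 88.5 ± 9.99 CPM in wild-type controls. FBA2, an aldolase of the plastid, was at 105.5 ± 10.7 CPM in camta6-5 with NaCl and 231.6 ± 40.3 CPM in camta6-5 controls, against 29.2 ± 5.70 CPM in wild type with NaCl and 220.1 ± 47.7 CPM in wild-type controls. TKL1, a transketolase, was the 1 gene with a negative interaction, -0.75 ± 0.201. Of 7 tested cytosolic counterparts of these enzymes, 1 rose and 2 fell in camta6-5, and 3 rose and 2 fell in wild type.

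Transcription factors known to regulate greening were tested as a list of 8. With NaCl 2 rose and 3 fell in camta6-5, and 3 rose and 4 fell in wild type. Over all genes 55.6% were called in camta6-5 and 77.5% in wild type, shares close to those of this list. GLK1 and GLK2, which activate antenna and chlorophyll genes, were the only listed genes besides CAMTA6 called between genotypes without NaCl. GLK1 was at 10.3 ± 1.13 CPM in camta6-5 with NaCl and 15.9 ± 1.1 CPM in camta6-5 controls, against 6.69 ± 0.829 CPM in wild type with NaCl and 28.2 ± 3.90 CPM in wild-type controls. GLK2 was at 44.3 ± 2.62 CPM in camta6-5 with NaCl and 46.2 ± 2.91 CPM in camta6-5 controls, against 34.1 ± 1.06 CPM in wild type with NaCl and 73.2 ± 9.25 CPM in wild-type controls. Without NaCl they were lower in camta6-5, with log2 differences of -0.83 ± 0.120 for GLK1 (edgeR adjusted p = 0.0106) and -0.66 ± 0.0900 for GLK2 (edgeR adjusted p = 0.00661), while no antenna gene was called in that comparison. In a fit of the control groups alone neither passed (edgeR adjusted p = 0.0664 for GLK1 and 0.106 for GLK2), and GLK1 did not pass without the camta6-5 control numbered 1 (edgeR adjusted p = 0.0595) or the wild-type control numbered 1 (edgeR adjusted p = 0.0644). HY5, a factor of light-driven greening, was at 13.5 ± 1.77 CPM in camta6-5 with NaCl and 19.1 ± 5.46 CPM in camta6-5 controls, against 4.01 ± 0.444 CPM in wild type with NaCl and 22.5 ± 1.70 CPM in wild-type controls. The called camta6-5 fall of HY5 was lost with no scaling (edgeR adjusted p = 0.0502) and in the fit of the compared groups alone (edgeR adjusted p = 0.0573). It was also lost without the camta6-5 control numbered 1 (edgeR adjusted p = 0.139) or the camta6-5 NaCl library numbered 2 (edgeR adjusted p = 0.0942). PIF1, which represses greening in the dark, rose in both genotypes, by 0.80 ± 0.114 in camta6-5 and by 1.70 ± 0.116 in wild type on the log2 scale, and GNC, a GATA factor that favours chlorophyll, fell by 0.30 ± 0.0929 in camta6-5 and rose by 0.85 ± 0.0917 in wild type. The camta6-5 fall of GNC did not pass without the camta6-5 control numbered 1 (edgeR adjusted p = 0.0626) or the camta6-5 NaCl library numbered 1 or 3 (edgeR adjusted p = 0.0604 and 0.0716).

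Sums of epidermis and shoot tip markers and of root markers were lower with NaCl in both genotypes, while endosperm sums overlapped in wild type. The summed CPM of 3 markers of epidermis and shoot tip (ATML1, PDF1 and STM) ran from 242.8 to 248.3 in camta6-5 with NaCl and from 379.5 to 542.2 in camta6-5 controls, against 64.1 to 75.5 in wild type with NaCl and 451.6 to 600.2 in wild-type controls. The sum of 3 root markers (PIN2, PLT1 and RHD6) ran from 53.0 to 56.7 in camta6-5 with NaCl and from 79.7 to 114 in camta6-5 controls, against 11.04 to 16.5 in wild type with NaCl and 82.9 to 105.4 in wild-type controls. These sums follow their most abundant genes. Of the epidermis and shoot tip markers, PDF1 and ATML1 fell in camta6-5 and STM did not pass (0.27 ± 0.146), and all 3 fell in wild type. Of the root markers, PIN2, with the highest CPM of the 3 in every group, fell in camta6-5, PLT1 (-0.30 ± 0.253) and RHD6 (0.10 ± 0.131) did not pass, and all 3 fell in wild type. The interaction was called positive in 3 of 3 epidermis and shoot tip markers and in 2 of 3 root markers (PIN2 and RHD6). Over all genes it was called positive in 27.1%. The sum of 4 endosperm markers ran from 76.8 to 104.9 in camta6-5 with NaCl and from 43.8 to 57.4 in camta6-5 controls. In wild type it ran from 70.4 to 87.3 with NaCl and from 40.8 to 119.4 in controls. These 4 markers did not move together. With NaCl in camta6-5, 2 were called higher and 0 lower, with log2 changes of 0.3341 to 4.484. In wild type 1 was called higher and 1 lower, with changes of -2.355 to 5.667. The interaction was called positive in 1 of them, with values of -1.183 to 2.809. Of 4 seed coat markers, TT10 had no count and BAN and TT12 had at most 1 and 9 counts in a group, and their sum, nearly all from MUM4, was 9.35 to 26.0 CPM. The part of a shift between tissues in the photosynthesis results was not tested. The 133 plastid-encoded genes of the table, among them the partners of these subunits, are listed at 0 in every library.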

How the data were processed

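The deposited table holds raw read counts per gene (whole numbers, not normalized by the authors). Per the submitters' processing notes, the tools were HTSeq 0.6.1, Bowtie2 2.2.6, TopHat2 2.1.0, DESeq2 1.10.0 and cutadapt 1.9, and the build was TAIR10. Roles, settings, and the treatment of reads that match several genes are not given in the sources used here. Per the labels' protocols, libraries were made with an Illumina TruSeq RNA kit, which does not mark strand.

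The edgeR package (4.0.16, under R 4.3.3) was used. The filterByExpr filter kept genes (minimum count 10, minimum total 15), 18515 of 33602, and libraries were scaled by TMM. A quasi-likelihood model with 1 mean for each of 4 groups (12 libraries, 8 residual degrees of freedom) was tested for 5 comparisons, two-sided, with Benjamini-Hochberg adjustment over all genes tested and a threshold of 0.05. SE is the size of the log2 change over the root of its F value. CPM are TMM scaled, with SD over 3 libraries, and CPM per kilobase use the RefSeq exon length. Intervals of count ratios cover counting error only. Shares were compared by an exact two-sided permutation test. Alternatives were RLE scaling, no scaling, no filter, a filter of 1 CPM in 3 libraries, DESeq2 1.42.0, limma voom 3.58.1, fits of the compared groups alone, the replicate number as a block, and each library left out.

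The 44 genes and the lists of related genes and markers were chosen with earlier results of these data known. Genes with values per library are, in each complex, the largest called change with NaCl in wild type, the largest called interaction, the highest level per length, and any gene called in neither NaCl comparison. PSAF, RCA, PSBR, PSBO1 and PSBS, which this rule does not take, and other named genes were chosen after their values were seen.

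All 44 genes were found in RefSeq TAIR10.1 and overlap their deposited position. Libraries of a group differed from each other by more than sampling noise. Same-numbered control libraries of the 2 genotypes had correlations of 0.225, 0.179 and 0.270 of deviations from their group means. Differently numbered libraries were not compared and the labels name no pairing, so that check does not settle whether the numbers pair the controls. Other pairs of groups gave correlations from -0.218 to 0.221, the highest between camta6-5 NaCl and wild-type control libraries numbered 3.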

Additional observations from a re-analysis of the deposited data

Results flagged for a closer look

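The genes below are those named in the report whose log2 response to NaCl in camta6-5 differed from that in wild type by edgeR's interaction test across all genes. Each value subtracts the wild-type response from the camta6-5 one, and a positive value with a fall in wild type means a smaller fall in camta6-5. In the antenna genes it was 2.40 in LHCA1, 2.12 in LHCA2, 2.16 in LHCA4, 3.20 in LHCB3, 1.4 in LHCB4.1 and 1.19 in LHCB4.2. In photosystem I it was 1.75 in PSAD1 and 1.60 in PSAN, and in photosystem II it was 0.61 in PSBO2, 1.38 in PSBP1, 1.04 in PSBR, 1.16 in PSBW, 2.38 in PSBX, 1.88 in PSBY, 1.45 in PSBTN and 1.09 in PSBS. In electron transport and ATP synthase genes it was 1.01 in PETE2, 1.03 in PETC, 1.26 in FNR1, 0.94 in ATPC1 and 1.16 in ATPD. In Rubisco and Calvin cycle genes it was 0.81 in RBCS1A, 1.17 in RBCS2B, 1.51 in RBCS3B, 1.47 in GAPA1 and 2.56 in GAPB.

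Among related genes it was 1.44 in PSBQ1, 0.84 in PSB27, 1.03 in FD1 and 0.85 in ATPG for photosynthesis, and 1.85 in PGK1, 1.78 in FBA2, 0.82 in PDTPI, 0.78 in CP12-1 and -0.75 in TKL1 for the Calvin cycle. The cytosolic counterparts gave -1.06 in GAPC1, 0.34 in GAPC2 and 0.48 in CTIMC. The GAPC2 interaction missed the threshold with no filter (edgeR adjusted p = 0.0541). It also missed on leaving out any of several single libraries (edgeR adjusted p of 0.053 to 0.0972). Without both controls numbered 3, GAPC2 (edgeR adjusted p = 0.0995) and CTIMC (edgeR adjusted p = 0.055) missed it. Without the 5 libraries richest in 18S rRNA, the value was 0.15 in GAPC2 and 0.14 in CTIMC. The regulators gave 1.44 in GLK1, 1.04 in GLK2, 1.99 in HY5, -0.90 in PIF1 and -1.15 in GNC. GAPC1 and GNC are the genes of this account with a called fall in camta6-5 and a called rise in wild type. Among the tissue markers it was 1.24 in ATML1, 2.79 in PDF1, 1.51 in STM, 2.62 in PIN2 and 0.70 in RHD6.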

How the results depend on the processing

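Genes that fell with NaCl numbered 28 to 32 in camta6-5 and 34 to 38 in wild type over 8 alternatives other than leaving out a library, in which 37 to 44 genes were tested, against 30 and 36 of 41. Those higher in camta6-5 with NaCl were 26 to 30 against 27, and positive interactions 25 to 29 against 26. Leaving out each library in turn, with 41 or 42 genes tested, gave 23 to 31 and 34 to 38 falls in camta6-5 and wild type, 25 to 27 genes higher in camta6-5 with NaCl and 25 to 29 positive interactions. Calls tested and kept in every alternative planned were 22 of 30, 33 of 36, 25 of 27 and 25 of 26; RBCS1B was kept for NaCl where it was tested, and the stricter filter left it out. With the replicate block, which pairs libraries by number, the counts were 32, 38, 30 and 29, with 0 genes called without NaCl, and the calls gained were LHCB4.1 and PSAL falling in camta6-5, PSAG and PSBO1 in wild type, PSAL, PSAO and RBCS2B between genotypes with NaCl, and the LHCB6, PSAF and PSAL interactions; for the controls alone with the block, 0 of 40 were called. Genes lower in camta6-5 with NaCl numbered 2 with no filter (LHCB2.2 and PSAK, at under 30 counts in a group), 1 in the fit of those groups alone and 1 without both control libraries numbered 3 (PSBO1 in each), and 0 to 1 on leaving out a library. Genes called without NaCl were 1 lower with DESeq2 (RBCS2B), and 0 to 1 higher on leaving out a library (PSBS). Negative interactions were 0 to 1 on leaving out a library and 1 without both controls numbered 3 (PSBO1). The following was chosen after seeing the data: without the 5 libraries richest in 18S rRNA, which leaves 1 library in each camta6-5 group, assumed to vary like the other groups, 10 of 43 genes fell in camta6-5, and the HY5 response in camta6-5 was 0.12 against -0.50. The cause was not tested. Leaving out both control libraries numbered 3 was also chosen after seeing the data, and gave 31, 34, 29 and 28. LHCB2.2, PSAK and PETE1 did not pass the main filter, and with no filter PETE1 fell in wild type; at this depth RBCS1B, PSBQ2, PSAH2 and PRK rest on few counts.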
